A study of Mus musculus with 19 samples.

Results

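Major histocompatibility complex (MHC) class I presentation was followed here through 10 genes, B2m, H2-D1, H2-K1, Tap1, Tap2, Tapbp, Nlrc5, Psmb8, Psmb9 and Erap1, chosen as a pathway, with no threshold on their values. Of the 10, the bulk RNA table of 13202 genes held 8, and 6 of those passed the filter on low values among 10803 tested genes. H2-K1 and Psmb8 had no row in that table and were not measured in bulk, while Nlrc5 and Psmb9 had rows below the filter. All 10 were listed in each of the 4 single-cell matrices, among 19059 genes in 3 of them and 32285 in the matrix labelled WT ocular.

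Melan-a cells are an immortalised line of mouse melanocytes. The bulk libraries came from 4 CRISPR-edited Bap1 knockout clones (KO clones 1 to 4) and from the unedited Bap1 wild-type parental line (WT), with 2 cultures of each line, no treatment, and all in 1 batch by the labels. BAP1 is a nuclear deubiquitinase whose loss is frequent in uveal melanoma. Each knockout line is 1 clone, and no line was edited and cloned with Bap1 intact, so the loss of BAP1 cannot be told apart from cloning, editing or time in culture. The single-cell matrices came from tumours that grew after injection of Melan-a cells of either genotype into syngeneic mice, under the skin or in the eye. All 4 are held under 1 sample, there is 1 matrix for each genotype and site, and the genotype and site come only from the matrix names, so each is called the matrix labelled KO skin, KO ocular, WT skin or WT ocular. The sources used here give no ages, sexes or numbers of mice.

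Class I molecules carry peptides from inside the cell to its surface, where CD8 T cells and natural killer cells read them. A polymorphic heavy chain, H2-K or H2-D in mice, pairs with the invariant light chain beta-2 microglobulin. Proteasomes cut the peptides, the TAP transporter pumps them into the endoplasmic reticulum, aminopeptidases trim them there, and tapasin holds the empty heavy chain beside TAP until a peptide fits. The transactivator NLRC5 and interferon signalling raise the transcription of most of these genes together, and tumour cells often express them at low levels.

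In the RefSeq annotation of GRCm38, 7 of the 10 genes lie in the MHC on chromosome 17, between chr17:33919478-35267497, in the order Tapbp, H2-K1, Psmb9, Tap1, Psmb8, Tap2 and H2-D1. B2m, Nlrc5 and Erap1 lie on chromosomes 2, 8 and 13. Tap1 ends 969 bases before Psmb8 starts, and Psmb8 ends 3024 bases before Tap2 starts. Tap1 and Psmb9 point away from each other, and 225 bases separate their starts.

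A link between promoter motifs and the levels of the members in the clones was not tested. The stretches upstream of B2m, H2-D1, the Tap1 and Psmb9 pair and Tapbp are shown as examples that differ in the motifs they hold. They are taken from RefSeq on GRCm38.p6, forward strand, 5′ to 3′, and each ends just before the first transcribed base of the gene (of Tap1 for the shared stretch, which begins just after the first transcribed base of Psmb9). Capitals mark matches on either strand to GAAA followed after any 2 bases by GAAA (the interferon-stimulated response element), GGG followed after any 2 bases by TT, any 1 base and CC (the kappaB motif), TGACG (the core of the cyclic AMP response element) and CCAAT (the Y box).
B2m, chr2:122147437-122147686: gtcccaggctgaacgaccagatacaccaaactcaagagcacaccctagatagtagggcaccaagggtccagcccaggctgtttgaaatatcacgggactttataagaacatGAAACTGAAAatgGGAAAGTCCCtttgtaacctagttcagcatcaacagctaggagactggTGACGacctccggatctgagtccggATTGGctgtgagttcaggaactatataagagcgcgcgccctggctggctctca
H2-D1, chr17:35262844-35263093: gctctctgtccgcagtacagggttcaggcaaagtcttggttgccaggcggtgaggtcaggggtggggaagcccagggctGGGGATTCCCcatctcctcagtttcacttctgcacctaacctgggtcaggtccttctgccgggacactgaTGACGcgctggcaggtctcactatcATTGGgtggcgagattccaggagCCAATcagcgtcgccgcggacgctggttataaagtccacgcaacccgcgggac
Tap1 and Psmb9, chr17:34187331-34187555: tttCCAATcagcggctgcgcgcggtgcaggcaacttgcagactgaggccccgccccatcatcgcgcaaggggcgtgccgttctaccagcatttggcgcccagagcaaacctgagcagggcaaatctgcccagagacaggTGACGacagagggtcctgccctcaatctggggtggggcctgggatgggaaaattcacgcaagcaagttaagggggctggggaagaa
Tapbp, chr17:33919228-33919477: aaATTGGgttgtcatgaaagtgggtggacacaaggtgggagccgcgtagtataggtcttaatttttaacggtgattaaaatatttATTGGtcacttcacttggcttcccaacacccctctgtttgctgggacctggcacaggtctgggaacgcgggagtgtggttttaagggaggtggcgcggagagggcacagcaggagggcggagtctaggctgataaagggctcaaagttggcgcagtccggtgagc

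In windows of 250 bases upstream of the start, B2m held all 4 motifs, with the interferon-stimulated response element at positions -139 to -130 and the kappaB motif at -126 to -117 from the first transcribed base. The H2-D1 and H2-K1 windows held the kappaB, TGACG and CCAAT motifs in that order. The stretch between Tap1 and Psmb9 held TGACG and CCAAT, and Tapbp held CCAAT alone, in 2 copies. None of the 4 motifs was found in the windows of Psmb8 and Erap1, and Nlrc5 and Tap2 had no window in the table, so 8 of the 10 genes were read. Among all 32851 promoter windows, 2.98% held the interferon-stimulated response element, 4.11% the kappaB motif, 17.8% TGACG and 33.8% CCAAT. A match is a string of letters and not a measured site, and a window without one says only that these letters are not there.

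Bulk values are given as normalised reads, that is reads scaled to a common depth for all libraries, recovered from the deposited stabilised values. Each library held 30.8 to 46.8 M recovered reads. The targeted gene, Bap1, was at 15.9%, 24.8%, 25.9% and 9.62% of the WT mean in clones 1 to 4, and limma called it lower in each. Melanocyte markers were abundant in every library. Of 15 markers of immune, endothelial, fibroblast and epithelial cells, 5 had rows, and apart from Cd68 and Lyz2 they summed to 39.0 to 109 normalised reads a library. Lyz2 is a lysozyme of myeloid cells and Cd68 a lysosomal protein abundant in macrophages but found in other cells too. Lyz2 had 282, 130, 72.1 and 31.8 mean normalised reads in clones 1 to 4, against 179 in WT, and limma called it lower in clones 3 and 4 (adjusted p 0.00624 and 4.35e-04). Cd68 had 954, 984, 1851 and 1882, against 1104 in WT, and was called higher in clones 3 and 4 (limma adjusted p 0.0309 and 0.0439). Their part in the differences of the members was not tested.

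In culture, the immunoproteasome gene Psmb9, at very low counts, the peptide transporter genes, the heavy chain gene H2-D1 and the transactivator Nlrc5 were the members that stood furthest below WT in the clones, while the trimming enzyme gene Erap1 stayed near the WT level. Tap1 and Tap2 fell in all 4 clones to 17.8% to 32.7% of the WT mean. Of the 6 tested members, limma on the stabilised values with Benjamini-Hochberg adjustment called 2, 4, 5 and 5 lower in clones 1, 2, 3 and 4, and none higher. Among all tested genes, the same test called 2.35%, 14.1%, 20% and 17.2% lower in clones 1, 2, 3 and 4. These p-values measure the spread between the 2 cultures of a line, pooled over the 5 lines. That spread was unequal among the lines and smallest in WT.

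**Figure D1:**
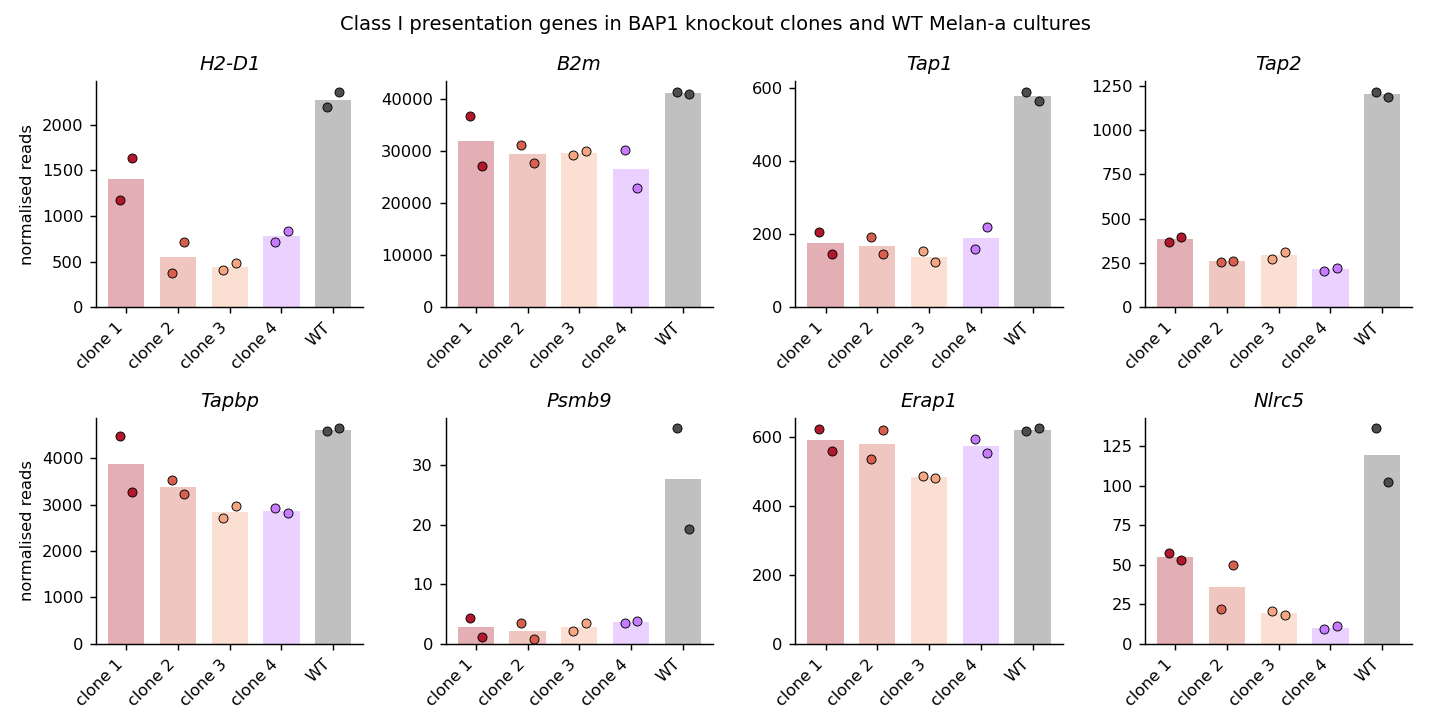
Normalised reads (vertical axis, own scale for each gene) of the 8 members in the bulk table, for KO clones 1 to 4 and then WT. Bars are the mean of 2 cultures and points the cultures. Every clone culture lies below both WT cultures for each gene except Erap1.

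Beta-2 microglobulin, the light chain of every class I molecule, was called lower in clones 3 and 4 only, by a small margin. B2m had 36761 and 27068 normalised reads in the cultures of clone 1, 31229 and 27772 in those of clone 2, 29322 and 29963 in those of clone 3, and 30274 and 22980 in those of clone 4, against 41387 and 41057 in WT. All 8 clone cultures were below both WT cultures, and the clones overlapped each other. By limma, the log2 differences of B2m from WT were -0.38, -0.48, -0.47 and -0.64 (SE 0.17 each), with adjusted p of 0.285, 0.0603, 0.0472 and 0.0141. Both calls, in clones 3 and 4, sat near the threshold: without WT replicate 1 or 2, the adjusted p by limma was 0.174 or 0.165 in clone 3 and 0.0827 or 0.0788 in clone 4. The call in clone 3 was also lost without either culture of clone 3 (0.174 and 0.154) or of clone 2 (0.0517 each), and that in clone 4 without clone 4 replicate 2 (0.0885). In clone 2, B2m was called once either culture of clone 1 (limma adjusted p 0.0271 and 0.0272) or of clone 4 (0.0346 each) was left out, and by DESeq2 on recovered reads (0.0146).

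H2-D1 encodes the H2-D heavy chain, the peptide-holding subunit. Its normalised reads were 1176 and 1631 in the cultures of clone 1, 373 and 715 in those of clone 2, 407 and 483 in those of clone 3, and 717 and 834 in those of clone 4, against 2190 and 2361 in WT. Clone 1 kept 61.7% of the WT mean, and clones 2, 3 and 4 kept 23.9%, 19.6% and 34.1%. Both clone 1 cultures were above every culture of the other 3 clones and below both WT cultures. The log2 differences from WT were -0.65, -1.81, -1.98 and -1.36 in clones 1 to 4 (SE 0.21 each), with limma adjusted p of 0.138, 2.02e-04, 7.20e-05 and 7.76e-04. An F test among the 4 clones in the same limma fit gave an adjusted p of 0.00260 for H2-D1, so its level differed among the clones beyond the spread between cultures; 44.5% of tested genes did so. In clone 1, H2-D1 was called when a culture of clone 2 was left out, with a limma adjusted p of 0.0483 without replicate 1 and 0.0485 without replicate 2. Class I heavy chain genes share sequence, so the split of reads between H2-D1 and its relatives is uncertain.

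TAP1 and TAP2 form the transporter that moves peptides into the endoplasmic reticulum. Tap1 had 205 and 144 normalised reads in the cultures of clone 1, 192 and 145 in those of clone 2, 154 and 123 in those of clone 3, and 160 and 218 in those of clone 4, against 590 and 564 in WT. Every clone culture lay far below WT, and the 4 clones overlapped. Its log2 differences were -1.16, -1.19, -1.33 and -1.09 (SE 0.14 each; limma adjusted p 0.00173, 2.16e-04, 6.51e-05 and 2.42e-04). The F test among clones gave Tap1 an adjusted p of 0.465 by limma.

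Tap2 had 370 and 395 normalised reads in the cultures of clone 1, 253 and 263 in those of clone 2, 274 and 314 in those of clone 3, and 204 and 223 in those of clone 4, against 1218 and 1188 in WT. All 8 clone cultures lay well below both WT cultures, and those of clone 1 were the highest of the 8. Its log2 differences were -1.31, -1.69, -1.57 and -1.86 (SE 0.10 each, limma adjusted p 1.01e-04, 2.61e-06, 3.40e-06 and 8.80e-07). They differed among the clones (limma F test, adjusted p 0.00778), as 44.5% of tested genes did. Tap1 and Tap2 were the 2 members called lower in all 4 clones, which 1.57% of tested genes were. Each kept that call in each clone under all 16 alternative settings tried.

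Tapasin, the product of Tapbp, bridges TAP and the empty heavy chain. Tapbp had 4474 and 3283 normalised reads in the cultures of clone 1, 3524 and 3237 in those of clone 2, 2723 and 2972 in those of clone 3, and 2925 and 2818 in those of clone 4, against 4581 and 4644 in WT. The first clone 1 culture came close to WT while the other 7 clone cultures lay further below. The log2 differences were -0.25, -0.43, -0.66 and -0.65 (SE 0.13 each; limma adjusted p 0.382, 0.0383, 0.00325 and 0.00400), so Tapbp was called lower in clones 2, 3 and 4. The call in clone 2 rested on single libraries: its limma adjusted p was 0.164 and 0.181 without WT replicate 1 and 2, 0.0656 and 0.179 without clone 2 replicate 1 and 2, and 0.0642 without either culture of clone 3.

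Psmb9 encodes a catalytic subunit of the immunoproteasome, the form of the proteasome induced by interferon. Its counts were very low: 4.4 and 1.1 normalised reads in the cultures of clone 1, 3.5 and 0.9 in those of clone 2, 2.1 and 3.5 in those of clone 3, and 3.4 and 3.8 in those of clone 4, against 36.2 and 19.4 in WT. The clones were at 7.98% to 13% of the WT mean, and no clone culture came near either WT culture. With the filter on low values dropped, limma gave Psmb9 log2 differences of -0.52, -0.54, -0.51 and -0.47 (adjusted p 0.0210, 0.00333, 0.00320 and 0.00523), a scale that is compressed at such counts and understates the change. Genes called lower without the filter were 2.54%, 14.4%, 20.1% and 18% of the table in clones 1 to 4.

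Erap1 encodes the aminopeptidase that trims peptides in the endoplasmic reticulum. It had 621 and 558 normalised reads in the cultures of clone 1, 536 and 620 in those of clone 2, 486 and 480 in those of clone 3, and 592 and 552 in those of clone 4, against 616 and 623 in WT. The first culture of clone 1 and the second of clone 2 overlapped WT. Its log2 differences were -0.06, -0.08, -0.27 and -0.09 (SE 0.10 each; limma adjusted p 0.849, 0.604, 0.0545 and 0.524), and no clone was called. Clone 3 was the lowest; Erap1 was called there by limma without clone 4 replicate 1 (adjusted p 0.0365) or 2 (0.0366), and by edgeR (0.0402) and DESeq2 (0.0351) on recovered reads.

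NLRC5 is the transactivator that binds class I promoters together with RFX, CREB/ATF and NF-Y factors. Nlrc5 had 57.4 and 52.9 normalised reads in the cultures of clone 1, 22.1 and 49.95 in those of clone 2, 20.9 and 18.5 in those of clone 3, and 9.2 and 11.3 in those of clone 4, against 136 and 102 in WT. The clones kept 46.3%, 30.2%, 16.5% and 8.61% of the WT mean, and every clone culture was below both WT cultures. Without the filter on low values, limma gave Nlrc5 log2 differences of -0.46, -0.67, -0.87 and -1.05 (adjusted p 0.0635, 0.00229, 2.83e-04 and 8.50e-05) and an F test among the clones an adjusted p of 0.0109. That F test called 42.4% of all genes in the table.

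**Figure D2:**
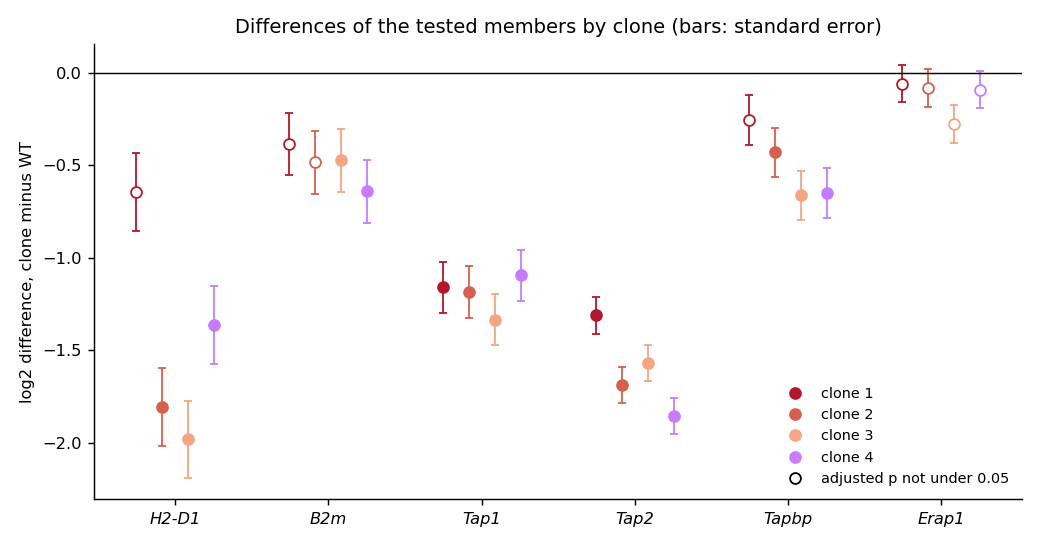
Log2 difference from WT on the stabilised scale (clone minus WT, with its SE) for the 6 tested members in each clone; open symbols mark an adjusted p at or above 0.05 by limma. Tap1 and Tap2 lie below -1 in every clone, H2-D1 does so in clones 2, 3 and 4, and Erap1 lies closest to 0.

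Counted by culture, 7 of the 8 members in the bulk table had all 8 clone cultures below both WT cultures, the exception being Erap1; 12.2% of the table's genes did so. Taken with the clone as the unit, the mean differences from WT were -0.49 (SD 0.11) for B2m, -1.45 (SD 0.60) for H2-D1, -1.19 (SD 0.10) for Tap1, -1.61 (SD 0.23) for Tap2, -0.50 (SD 0.19) for Tapbp and -0.13 (SD 0.10) for Erap1, with n = 4 clones and all 4 lower for each gene. At that level, where the single WT line is taken to vary like the clones, limma called 0 of the 6 members and 0 of all genes after adjustment. Without adjustment, 4 of the 6 members and 671 genes had a p under 0.05 by limma. After adjustment, edgeR also called 0 members and 0 of all genes. DESeq2 called 2 members, but its share over all genes is not given here, so nothing about the members is read from that count. The median log2 difference of the 6 tested members was -0.51, -0.83, -1.0 and -0.87 in clones 1 to 4, beside -0.02, 0.03, 0.01 and 0.04 for all tested genes.

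The members varied together across the 10 libraries. Among the 21 pairs that leave out Erap1, Pearson's r on the stabilised scale ran from 0.56 to 0.95 with a median of 0.79, and the highest was that of Tap1 with Psmb9, the pair that shares an intergenic stretch. The 7 pairs with Erap1 had r of 0.42 to 0.70. These libraries share their clone structure, so the values describe the 10 libraries only. Among 10797 other tested genes, the 5 whose pattern was most like that of H2-D1 were Gstm7, Fam185a, Haus7, Ifitm3 and Gsdme, each with r of 0.97. Those most like Tap2 were Gm5577, Ulk4, Kdr, Hes1 and Parm1, with r of 0.97 to 0.98. In the part of chromosome 17 that holds the 7 members, 48 other genes were tested. Of these, limma called 2, 5, 5 and 4 lower in clones 1 to 4 and 2, 4, 10 and 13 higher. Among all tested genes, 2.35%, 14.1%, 20% and 17.2% were called lower and 1.15%, 12%, 19.9% and 19.3% higher. A change of the whole region was not tested.

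Most of the other class I genes of the MHC and beyond it that could be tested were lower in clones 2, 3 and 4. Of 20 class I-like heavy chain genes listed, 6 were in the table and 5 tested, and limma called 1, 4, 4 and 4 lower in clones 1 to 4 and none higher, where 2.35%, 14.1%, 20% and 17.2% of all tested genes were called lower. Fcgrt, the receptor that recycles antibodies and pairs with beta-2 microglobulin, fell in all 4 clones, by 0.60, 1.25, 0.98 and 1.06 on the log2 scale. Mr1, which shows metabolites to MAIT cells, had log2 differences of -0.31, -1.55, -1.94 and -2.15 and was called in clones 2, 3 and 4. H2-Q4, a class Ib heavy chain gene, showed -0.37, -0.74, -1.37 and -2.03, and Hfe, a regulator of iron uptake, showed -0.37, -0.66, -1.39 and -0.75, both called in clones 2, 3 and 4. H2-T22, another class Ib gene, was called in no clone (-0.20, -0.25, -0.34 and -0.09). The list's median log2 difference was -0.37, -0.74, -1.37 and -1.06.

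A list of peptide loading genes, with general chaperones of the endoplasmic reticulum among them, had calls only in the higher direction. Of 10 listed and tested, limma called 0, 4, 3 and 1 higher in clones 1 to 4 and 0 lower. Among all tested genes, 1.15%, 12%, 19.9% and 19.3% were called higher, so the 1 call in clone 4 was below the general share. Every call fell on the genes named below, and the rest of the list was called in no clone. Hspa5, the BiP chaperone, rose in clones 2 and 3 (log2 0.91 and 1.00), as did Calr, calreticulin of the loading complex (0.84 and 0.58). Pdia6, a disulphide isomerase, rose in clones 2, 3 and 4 (0.50, 0.65 and 0.59), and Pdia3, the isomerase bound to tapasin, rose in clone 2 (0.60). The list's median log2 difference was 0.04, 0.35, 0.27 and 0.13.

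Partner genes of the proteasome were called less often than tested genes at large, except for higher calls in clone 4. Of 19 tested, limma called 0, 1, 2 and 7 higher and 0, 1, 2 and 0 lower in clones 1 to 4. Among all tested genes, 1.15%, 12%, 19.9% and 19.3% were called higher and 2.35%, 14.1%, 20% and 17.2% lower. Only the 7 called higher in clone 4 were above those shares, so nothing about the list is read from the other counts. The list medians were -0.07, 0.13, 0.13 and 0.20 on the log2 scale. Psmb10, the remaining catalytic subunit of the immunoproteasome, had 262 and 246 normalised reads in the cultures of clone 1, 418 and 457 in those of clone 2, 314 and 335 in those of clone 3, and 529 and 555 in those of clone 4, against 261 and 230 in WT. It rose in clones 2 and 4, with log2 differences of 0.56 and 0.79. Psma7, a structural subunit, rose in clones 3 and 4 (0.42 and 0.71). Psme1, a subunit of the activator PA28, fell in clones 2 and 3 (by 0.47 and 0.37).

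Transcription factors known for class I promoters showed no common direction. Of 13 tested, 0, 1, 3 and 3 were called higher and 0, 2, 1 and 0 lower in clones 1 to 4. Among all tested genes, 1.15%, 12%, 19.9% and 19.3% were called higher and 2.35%, 14.1%, 20% and 17.2% lower. The counts of this list are near or below those shares, so nothing about the list is read from them. Irf1, an interferon-induced activator, fell in clones 2 and 3 (by 0.69 and 0.71), while Rela, a subunit of NF-kappaB, rose in clones 2 and 3 (0.38 and 0.59). In clone 4, Nfyc of the Y box factor rose by 0.52 and Ezh2, the Polycomb methyltransferase, by 0.56.

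Some interferon receptor and signalling genes were lower in clones 2, 3 and 4. Of 12 tested, limma called 0, 4, 9 and 7 lower and 0, 0, 0 and 1 higher in clones 1 to 4, where 2.35%, 14.1%, 20% and 17.2% of all tested genes were called lower, with list medians of -0.14, -0.30, -0.45 and -0.45. Ifngr1, a chain of the interferon gamma receptor, showed log2 differences of -0.67, -1.16 and -1.27 in clones 2, 3 and 4, Jak2, its kinase, -0.75, -1.19 and -0.76, and Socs3, a feedback inhibitor of cytokine signalling, -1.42, -1.18 and -1.14, all called in these 3 clones and none in clone 1. Tap1 and Tap2 were called in clone 1 as well, where 0 of the 12 interferon genes were; this difference between the lists was not tested.

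In the tumours, cells were clustered in each matrix without using any class I gene, and clusters were named from markers. The class labelled melanocytic-like held 9602, 4844, 4375 and 4773 cells in the matrices labelled KO skin, KO ocular, WT skin and WT ocular, macrophage-like 1889, 609, 1538 and 1780, and endothelial-like 259, 92, 128 and 796. Clusters holding 244, 619, 4035 and 7888 cells stayed unnamed. The summed melanocytic markers reached 39084, 50096, 57013 and 9840 CPM (UMIs of a gene per 1000000 UMIs of the class) in melanocytic-like cells, and 17679, 13641, 7846 and 6142 in macrophage-like cells, so melanocytic RNA was found in every class and the melanocytic-like name is least distinct in the matrix labelled WT ocular. In that order of matrices, medians of 4111, 5743, 4111.5 and 2056 UMIs and of 0.227%, 0.649%, 1.535% and 11.454% mitochondrial UMIs were found per cell. No full barcode was shared between matrices, but the first 16 bases of 2417 barcodes were shared by KO skin and WT skin and of 2014 by KO ocular and KO skin. With 1 matrix a group there is no test between matrices. Intervals are exact 95% Poisson intervals that cover counting error only.

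One melanocytic-like cluster of 584 cells in WT skin had 37.2% of its cells among the top 5% of doublet scores, and one of 130 cells in KO ocular had 91.5%. With these clusters in, 8 macrophage markers other than Cd68 summed in melanocytic-like cells to 67.0, 16.7 and 410 CPM in KO skin, KO ocular and WT skin. Without them the sums were 67.0, 15.8 and 71.5, against 7005, 7393 and 10053 in macrophage-like cells. None of the 8 markers was at 0 in any of these classes. Values for melanocytic-like cells are given below without the 2 clusters unless stated, a choice made after their marker levels were seen.

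Melanocytic-like cells held little heavy chain RNA beside the macrophage-like cells of the same matrix, but much light chain RNA. H2-D1 stood at 12.5 CPM in KO skin (interval 11.7 to 13.4), 4.88 in KO ocular (4.41 to 5.38), 23.4 in WT skin (22.1 to 24.8) and 36.5 in WT ocular (33.3 to 39.9). These levels were 3.93%, 1.01%, 5.13% and 10.3% of those in macrophage-like cells. H2-K1, the other classical heavy chain gene, stood at 5.69, 1.39, 5.95 and 32.8 CPM, or 1.00%, 0.31%, 0.93% and 10.4% of the macrophage-like level. The summed macrophage markers in melanocytic-like cells were at 0.957%, 0.214%, 0.711% and 1.69% of their macrophage-like level, so H2-K1 outside WT ocular was close to that share, and no level of its own in melanocytic-like cells is read from it there. H2-D1 also lay near the level of erythroid-like cells, which was 9.30, 10.7, 19.1 and 35.8 CPM, and so did H2-K1 in WT ocular (35.9). By that measure, neither heavy chain gene was distinguishable from free RNA in the melanocytic-like cells of KO ocular and WT ocular. The measure is rough, since the classes were not matched in depth. Class I RNA made by erythroid-like cells themselves was also not told apart from free RNA, so the measure cannot show that heavy chain RNA was free. In KO ocular the erythroid-like class held 638 cells, but 171 at Leiden resolution 0.5. H2-D1 stood above the marker share there (1.01% against 0.214%) and in WT ocular (10.3% against 1.69%). As the 2 measures differ, no level of its own is read for H2-D1 in these 2 matrices. In KO skin and WT skin the erythroid-like levels of H2-D1 rested on 6 and 4 UMIs. B2m stood at 248, 508, 630 and 1246 CPM, or 67.7%, 63.6%, 65.6% and 86.7% of the macrophage-like level.

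**Figure D3:**
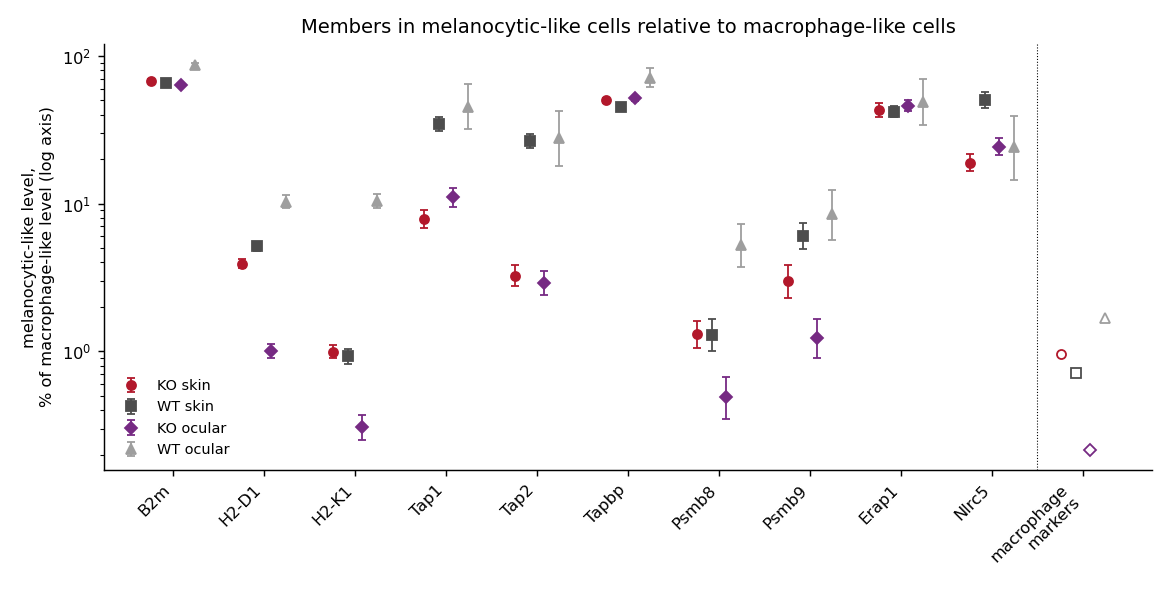
Level in melanocytic-like cells as a percentage of that in macrophage-like cells of the same matrix (log axis), for the 10 members; open symbols show the summed macrophage markers. B2m, Tapbp and Erap1 lie above 40% in each matrix, while H2-K1 and Psmb8 lie near the marker share in both skin matrices.

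The transporter genes of melanocytic-like cells stood lower against macrophage-like cells in KO skin than in WT skin. Tap1 was at 7.87% of the macrophage-like level in KO skin, against 34.5% in WT skin, and at 11% in KO ocular. Tap2 was at 3.26% in KO skin, against 26.5% in WT skin, and at 2.91% in KO ocular. In the matrix labelled WT ocular, Tap1 was at 45.2% and Tap2 at 27.7%. WT ocular came from another gene list and barcode format, so its values are listed and not compared. Psmb8, an immunoproteasome subunit gene, was at 1.31%, 0.49%, 1.29% and 5.25% in KO skin, KO ocular, WT skin and WT ocular, close to the marker share in KO skin, KO ocular and WT skin. Psmb9 was at 2.98%, 1.23%, 6.07% and 8.52%, Nlrc5 at 18.9%, 24.3%, 50.3% and 24.1%, Tapbp at 50.2%, 51.5%, 45.3% and 71.2%, and Erap1 at 42.9%, 46.0%, 41.9% and 48.7%.

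**Figure D4:**
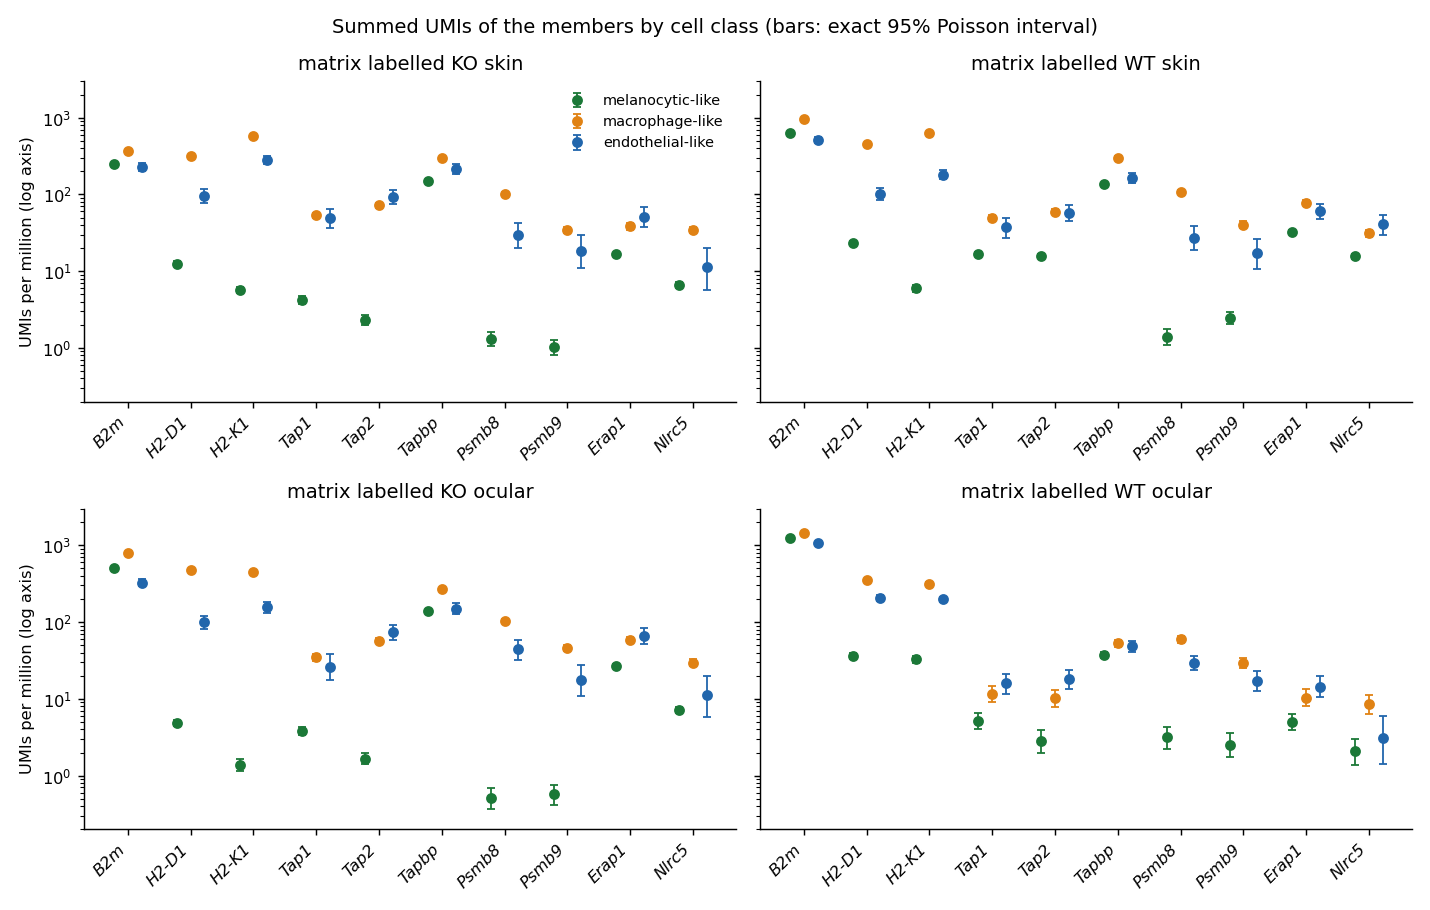
CPM (log axis) of each member in melanocytic-like, macrophage-like and endothelial-like cells of the 4 matrices, with exact 95% Poisson intervals. Of the 3 classes, melanocytic-like cells are lowest in every matrix for each member except B2m.

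Between the matrices labelled KO skin and WT skin, Tap2 and Tap1 were the members furthest apart in melanocytic-like cells. Tap2 stood at 2.34 CPM in KO skin (interval 2.00 to 2.72), against 15.7 in WT skin (14.7 to 16.9), a ratio of 0.149 (0.125 to 0.175). Tap1 stood at 4.21 in KO skin (3.75 to 4.70), against 16.9 in WT skin (15.7 to 18.03), a ratio of 0.250 (0.218 to 0.284). Every one of the 9 KO skin clusters was below every one of the 5 WT skin clusters for Tap2 (1.54 to 3.07, against 6.44 to 21.98) and for Tap1 (1.87 to 5.84, against 7.11 to 19.98), though clusters of a matrix are not replicates. Erythroid-like cells, used as a measure of free RNA, held 0 UMIs of Tap2 in KO skin, which allows up to 4.65 CPM, and 3 in WT skin, or 14.3 CPM (2.95 to 41.8), too few to set a background for WT skin. The KO skin levels of Tap2 and Tap1, 2.34 and 4.21 CPM, were themselves near free RNA.

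The other melanocytic-like ratios of KO skin to WT skin were 0.418 for Nlrc5 (0.372 to 0.469), 0.418 for Psmb9 (0.310 to 0.561), 0.393 for B2m (0.386 to 0.400), 0.504 for Erap1 (0.468 to 0.543), 0.536 for H2-D1 (0.491 to 0.584), 0.938 for Psmb8 (0.683 to 1.29), 0.957 for H2-K1 (0.823 to 1.11) and 1.09 for Tapbp (1.06 to 1.12). Thus 5 of the 10 members were past 2-fold lower, where 11.4% of genes were, and none higher, where 20.3% were. With the cluster rich in high doublet scores kept, 9 of the 10 were past 2-fold lower, where 15% of genes were lower and 19.4% higher by that measure and the median ratio of all genes was 1.13. The 4 members that crossed the 2-fold line only with that cluster in were H2-D1 (0.308), H2-K1 (0.182), Psmb8 (0.321) and Erap1 (0.488). In cells with no UMI of a macrophage marker, 6 members were past 2-fold lower, where 10.7% of genes were, and none higher, where 20.8% were, with Tap2 at 0.133 and Tap1 at 0.234.

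Macrophage-like cells, a host cell type, did not show the transporter difference. Tap2 stood at 71.8 CPM in KO skin, against 59.3 in WT skin, a ratio of 1.21 (1.09 to 1.34), and the ratio of Tap1 was 1.09 (0.972 to 1.23). H2-D1 was at 0.699 and H2-K1 at 0.894. In these cells 2 members were past 2-fold lower, B2m at 0.381 and Erap1 at 0.492, where 6.39% of genes were lower, and none of the members was past 2-fold higher, as 19.4% of genes were. In endothelial-like cells, B2m (0.444) and Nlrc5 (0.279) were past 2-fold lower, where 10% of genes were, and no member was past 2-fold higher, where 10.4% were. There Tap2 (1.62), H2-K1 (1.57) and Tap1 (1.33) had ratios above 1. Melanocytic-like cells thus had a Tap2 ratio below 1 while macrophage-like and endothelial-like cells had ratios above 1. Ratios below 1 were not limited to melanocytic-like cells. Of the 9 cell classes named in both matrices, melanocytic-like included, 4 had a Tap2 ratio below 1 and 5 above. For Tap1, 3 were below and 6 above, with the doublet-rich cluster kept. The lowest ratio was 0 for both genes, from classes with no UMI in KO skin. With 1 matrix a group, the difference between classes was not tested.

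The B2m difference was found in every cell class. Its ratio of KO skin to WT skin lay between 0.358 and 0.449 in all 9 cell classes named in both matrices, host cells included. The B2m ratio of melanocytic-like cells lay within the range of the host classes. Bap1 in melanocytic-like cells had a ratio of 1.12 (1.06 to 1.18), so the matrix labelled KO skin did not hold less Bap1 RNA. In the bulk cultures, by contrast, the 4 knockout clones held 9.62% to 25.9% of the WT mean of Bap1. The positions of the probes or tags and of the edit are not stated in the sources used here. The label KO skin is therefore not borne out by Bap1 RNA, and could not be checked otherwise. Every KO skin over WT skin value rests on it. In melanocytic-like cells, Bap1 stood at 33.2 CPM in KO ocular, against 47.4 in KO skin and 42.5 in WT skin. In macrophage-like cells it stood at 34.55, 42.6 and 36.7 CPM in the same order. Bap1 RNA thus stood lower in KO ocular than in KO skin in tumour and host cells alike. The bearing of this on the KO ocular over KO skin ratios was not tested.

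**Figure D5:**
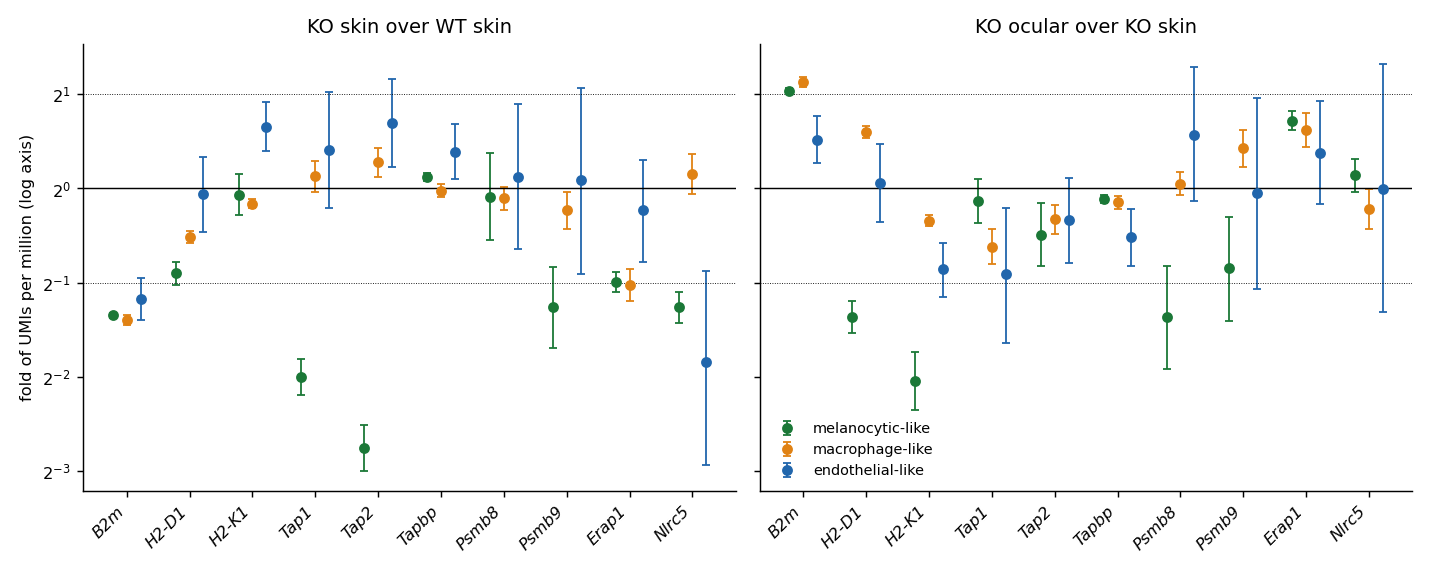
Ratio of CPM (log axis) with exact 95% counting intervals, for KO skin over WT skin and for KO ocular over KO skin, in 3 cell classes. Tap2 in melanocytic-like cells of the skin comparison lies at 0.149 and in macrophage-like cells at 1.21, while B2m lies at 0.38 to 0.45 in each class.

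Per cell, a UMI of Tap2 was seen in 1.67% of melanocytic-like cells in KO skin (exact binomial interval 1.42% to 1.94%) and 15.7% in WT skin (14.6% to 16.9%), at median depths of 4520 and 8926 UMIs. After thinning to 1000 UMIs a cell, which left 9348 of 9602 and 3771 of 3791 cells, the shares were 0.270% and 1.86%. Erythroid-like cells of WT skin were at 0.533% for Tap2 over 51 cells, at a median of 1938.5 UMIs. For H2-D1 the thinned shares in melanocytic-like cells were 1.52% in KO skin and 2.50% in WT skin, with 8.59% and 23.4% before thinning, beside 0.720% and 1.94% in erythroid-like cells and 30.4% and 33.7% in macrophage-like cells. The thinned Tap1 shares were 0.436% in KO skin and 1.82% in WT skin. The WT skin share was below that of its erythroid-like cells (2.35%, over the same 51 cells). So few cells set no background for Tap1 or Tap2. No per-cell difference in Tap1 is read from these shares, and the Tap2 shares are given as values only.

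Between the ocular and the skin site, within the 2 matrices labelled KO, B2m was the member that differed most in macrophage-like cells. In melanocytic-like cells B2m differed most only among the members above about 5 CPM in both matrices. H2-D1, H2-K1 and Psmb8 differed there by a larger fold than B2m. They lay below that level in KO ocular, H2-D1 only just, at 4.88 CPM. H2-D1 in melanocytic-like cells was below its erythroid-like level in KO ocular, so its ratio is a value and not a difference in expression. There it had a ratio of KO ocular to KO skin of 0.389 (0.345 to 0.438), which was 1.22 at Leiden resolution 0.5. In macrophage-like cells H2-D1 stood at 484 CPM in KO ocular, against 319 in KO skin, a ratio of 1.52 (1.45 to 1.58). Melanocytic-like cells also had ratios below 1 for H2-K1 (0.243), Psmb8 (0.389) and Psmb9 (0.556), each at under 2 CPM in KO ocular. The summed macrophage markers in these cells were lower as well, at 15.8 CPM in KO ocular and 67.0 in KO skin, and their part in these ratios was not tested. The transporter genes had ratios of 0.911 for Tap1 (0.776 to 1.07) and 0.712 for Tap2 (0.565 to 0.896), Tapbp 0.926, Nlrc5 1.10 and Erap1 1.65.

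B2m was again shifted in each class. It was higher in KO ocular than in KO skin by 2.05-fold (2.01 to 2.09) in melanocytic-like, 2.18 (2.10 to 2.27) in macrophage-like and 1.43 (1.21 to 1.70) in endothelial-like cells, and higher in all 9 classes named in both. Within KO ocular, the 8 melanocytic-like clusters ran from 385 to 859 CPM of B2m and from 1.76 to 6.27 of H2-D1. With the doublet-rich cluster kept, 1 of the 10 members was past 2-fold higher in melanocytic-like cells and 3 lower, where 7.32% of genes were higher and 16.9% lower; in macrophage-like cells 1 was higher, where 4.86% were, and none lower, where 13.6% were; and in endothelial-like cells 0 were past 2-fold in either direction, where 9.15% were higher and 9.62% lower. The lower H2-D1, H2-K1 and Psmb8 of KO ocular depended on the clustering: at Leiden resolution 0.5 their ratios in melanocytic-like cells were 1.22, 1.95 and 1.42. At that setting the melanocytic-like class of KO ocular grew to 5580 cells while its neutrophil-like class shrank to 634 cells, beside 4844 and 1843 at the main resolution.

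Across all classes, H2-K1 was highest in T and NK-like cells, at 1815, 1104 and 1016 CPM in KO skin, KO ocular and WT skin. H2-D1 was highest in macrophage-like cells, at 319, 484, 457 and 353 CPM in KO skin, KO ocular, WT skin and WT ocular, and lowest in melanocytic-like or erythroid-like cells of each matrix.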

How the data were processed

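Bulk expression was deposited as variance-stabilised values on a log2-like scale, stranded polyadenylated libraries per the labels' protocols; no aligner, counter or use of strand in counting is given in the sources used here. Single-cell values are UMI counts as deposited, not normalised, from Cell Ranger per the submitters' processing notes, in versions 8.0.0 and, for WT ocular, 7.0.0 per the file headers. The labels' protocols mention a 3' kit as well as fixed tissue. GRCm38 and mm10 are the builds in the submitters' processing notes. The whole-genome and whole-exome libraries were not analysed here.

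The stabilised values inverted to whole reads in 100% of values, within 0.01. Genes with a mean at least 1 above the lowest value of 6.61 were tested with limma 3.58.1 (trend, 5 groups, all 10 libraries, R 4.3.3), two-sided, at a Benjamini-Hochberg adjusted p under 0.05 over 10803 genes. edgeR 4.0.16 and DESeq2 1.42.0 on recovered reads, other scalings, no filter, a replicate block and leaving out each library were the alternatives. On simulated data for clone 2 against WT, 85 of 100 genes changed 2-fold and 99 of 100 changed 4-fold were recovered, with 7 false calls among 10803 genes. The cultures of each clone differed by more than sampling noise, with a median chi-square per gene of 2.65 to 11.7 and a mean of 11.3 to 79.3. Those of WT differed least, with a median of 0.98 and a mean of 2.50. The cultures of every line were kept as 2 samples.

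Cells were clustered in each matrix with scanpy 1.11.5 (Leiden), leaving out class I, other H2 and mitochondrial genes, and named from fixed markers, with naming thresholds set after marker levels, not class I values, were seen. UMIs were summed per class and given as CPM, and ratios counted with at least 20 summed UMIs. A doublet caller marked 0, 107, 0 and 0 cells in KO skin, KO ocular, WT skin and WT ocular and so did not work, and doublet scores were used only as alternatives. Cd68 was left out of the macrophage markers after its reads were seen in bulk cultures. The members and lists were chosen with earlier results of these data known. Named genes were all members, up to 4 genes per list with the lowest adjusted p (1 of these is not reported here), and the 5 genes most like H2-D1 and Tap2.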

Additional observations from a re-analysis of the deposited data

Results flagged for a closer look

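In the bulk cultures, Erap1 in clone 3 stood apart from the other clones, with a log2 difference from WT of -0.27, while clones 1, 2 and 4 lay between -0.09 and -0.06. Chance sets such a mark in about 1 in 20 groups.

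H2-D1 and Tap2 differed among the 4 clones by the limma F test, with adjusted p of 0.00260 and 0.00778. They were 2 of the 6 tested members, and the same test called 44.5% of all tested genes. Nothing about the members as a set is read from that count. Clone 1 had the smallest difference from WT for both genes.

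In the tumours, Tap2 had a ratio of KO skin to WT skin of 0.149 in melanocytic-like cells and of 1.21 in macrophage-like cells. Of the 9 cell classes named in both matrices, 4 had a Tap2 ratio below 1. Tap2 in melanocytic-like cells of KO skin was under about 5 CPM, near free RNA, and no background was set for WT skin. H2-D1 had a ratio of KO ocular to KO skin of 0.389 in melanocytic-like cells and of 1.52 in macrophage-like cells. The first was 1.22 at Leiden resolution 0.5. By the erythroid-like level, H2-D1 was not distinguishable from free RNA in melanocytic-like cells of KO ocular. Psmb9 had ratios of 0.556 and 1.34, of which the first rests on 0.57 CPM in KO ocular and 1.03 CPM in KO skin, levels near free RNA. The counting intervals of each pair lie on opposite sides of 1. With 1 matrix a group, these differences between cell classes were not tested.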

How the results depend on the processing

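Of 384 recomputed member differences in bulk, 351 kept their direction and side of the threshold, 15 lost and 16 gained a call, and 2 reversed; the 2 were Erap1 in clones 1 and 2, whose log2 differences ran from -0.1177 to 0.00379 and from -0.1616 to 0.001125 when each library was left out, none called. Leaving out each library gave 57 to 639 genes called in clone 1 (378 with all), 1088 to 3488 in clone 2 (2822), 2282 to 4986 in clone 3 (4304) and 1925 to 4316 in clone 4 (3941), with 2 to 3, 3 to 5, 4 to 6 and 4 to 5 members; in each clone the lowest count came without a WT culture. Among clones 2 to 3 members were called (2 of 6 with all libraries, where 44.5% of tested genes were), and with the clone as the unit 0. A replicate block called 616 genes in clone 1 and DESeq2 716. With the block, H2-D1 in clone 1 (adjusted p 0.0252) and B2m in clone 2 (0.0241) were called by limma; the numbers were not taken to pair the cultures, since deviations of same-numbered cultures correlated at 0.11 to 0.73 in 5 of the 6 pairs of clones but at -0.03 between clones 3 and 4 and at -0.13 to -0.07 between WT and the clones. With the clone as the unit, DESeq2 called 2 members, and counting each library as a unit 5. The shares over all genes under these settings are not given here, so nothing about the members is read from these counts.

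Past 2-fold, the KO skin over WT skin count in melanocytic-like cells was 9 and became 5 without clusters rich in high doublet scores; in macrophage-like cells it was 2 and became 1 with at least 1000 UMIs a cell, at Leiden resolution 0.5 or without the top 5% of doublet scores. For KO ocular over KO skin, melanocytic-like cells gave 4, and 1 with at least 1000 UMIs or at Leiden resolution 0.5, and macrophage-like cells 1, and 2 with at least 1000 UMIs. Of 320 recomputed member ratios between matrices, 227 stayed within their counting interval, 88 left it and 5 crossed 1. The 5 were, for KO skin over WT skin in cells with no UMI of a macrophage marker, H2-K1 (1.10) and Psmb8 (1.11), and, for KO ocular over KO skin at Leiden resolution 0.5, H2-D1 (1.22), H2-K1 (1.95) and Psmb8 (1.42). The cause was not tested. Without replicate matrices, no setting gives an error between tumours, and at these depths members under about 5 CPM in melanocytic-like cells are near free RNA.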
